A study of Homo sapiens with 6 samples.

Results

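Of the 34692 gene rows on the arrays, 40 were named genes of the Wnt pathway downstream of its ligands and receptors, and all 40 had a row. They were taken by name and sorted by role into 12 feedback and target genes, 10 secreted antagonists, 4 antagonists of the cell membrane, 8 cytoplasmic core components and 6 nuclear factors. Each was compared between 3 arrays of isthmic organizer (IsO)-like cells and 3 arrays of control neural cells. Both were differentiated from H9, an established human embryonic stem cell line, as floating aggregates with 5 µM dorsomorphin and 10 µM SB431542, inhibitors of BMP and of activin/TGF-beta receptors, over the first 4 days, followed by 5 days on Matrigel. The labels add 100 ng/ml FGF8 and CHIR99021, an inhibitor of the kinase GSK3, for IsO-like cells only. CHIR99021 is given as a range from 0 to 1.2 µM, and the concentration of the arrayed cells is not stated. All samples came from 1 cell line. Nothing in the labels says whether samples of a group were separate cultures, so the p-values reflect no more than the scatter among these arrays, and that scatter could be technical. In such bulk RNA, fewer cells of a type and less RNA per cell cannot be told apart.

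In canonical Wnt signalling, a complex of AXIN, APC and GSK3 marks beta-catenin for destruction. Wnt binding to Frizzled receptors, or inhibition of GSK3, stops this, and beta-catenin enters the nucleus, where it turns TCF/LEF factors from repressors bound to Groucho/TLE proteins into activators. Several of the genes so activated encode inhibitors of the pathway, while secreted antagonists such as SFRP and DKK proteins intercept the ligands or the co-receptors outside the cell. In the embryonic brain, WNT1 is made at the isthmic organizer, the signalling centre between midbrain and hindbrain, and the forebrain forms where Wnt signalling is held low.

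Levels are normalised log2 intensities, and differences are IsO minus control on that scale. Values after ± are limma's moderated standard errors with 3 arrays per group, in which each row's variance is drawn toward that of all rows tested. A gene was called where limma's Benjamini-Hochberg adjusted p, over all rows tested, was below 0.05. A row was tested where its detection p-value, against the negative controls of its array, was below 0.05 on at least 3 arrays, which held for 28 of the 40 genes and 14548 rows in all. Median deposited intensities were 144 to 157 over the 6 arrays, and 13999 to 15232 rows per array were detected; the number of arrays limits the precision. Of 10 markers of the isthmic organizer, 7 were above background on all 3 IsO arrays and 3 on all 3 control arrays. Their summed normalised intensity was 11627 to 16480 on IsO arrays and 1368 to 1559 on control arrays. WNT1, itself a Wnt ligand, was the brightest of them on IsO arrays (log2 levels of 12.89 to 13.12). PAX5 was above background on no array, and PAX2 and LMX1B on 1 IsO array each. FGF8 overlapped between groups and was not called by limma (adjusted p = 0.609). All 5 forebrain markers fell, from a summed 15034 to 22250 on control arrays to 304 to 345 on IsO arrays. Neuron markers summed to 13464 to 17132 on control arrays and 22260 to 25703 on IsO arrays, where 1 of 6 tested (NEFM) rose. The brightest neuron marker, TUBB3, was not called by limma (adjusted p = 0.469). Neural progenitor markers summed to 80303 to 108172 on control arrays and 30876 to 56266 on IsO arrays, where 1 of 6 tested (SOX2) fell, and mesenchyme markers to 725 to 965 and 1354 to 3553, where limma called none of 3 tested and 2 had an unadjusted p below 0.05. The part of such differences in cell make-up in the Wnt genes' values was not tested. The arrays numbered 1 stood apart: over tested rows, Control 1 correlated more closely with IsO 1 (r = 0.974) than with Control 2 (r = 0.948) or Control 3 (r = 0.953). Same-numbered arrays deviated together from their group means, but so did Control 2 with IsO 3 and Control 3 with IsO 2. Values with the replicate number as a block, or without both arrays numbered 1, are given where they change a call.

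The feedback genes SP5, APCDD1, NKD1 and AXIN2 were higher in IsO-like cells, the antagonist genes SHISA2, SFRP1 and FRZB were lower, and no cytoplasmic component was called. Of the 28 tested genes 4 rose, 3 fell and 21 did not pass. Over all rows tested, 1.31% were called, 0.818% higher and 0.488% lower. At an unadjusted limma p below 0.05, 9 of the 28 genes were higher and 6 lower, beside 777 and 664 of all 14548 rows tested. With the replicate block 7 rose and 4 fell, where 5.78% of all rows were called (3.28% higher, 2.5% lower), and without both arrays numbered 1, 4 rose and 4 fell, where 2.46% were called (1.33% higher, 1.13% lower). The groups did not overlap for 9 genes that were higher and 6 that were lower in IsO-like cells. Over all rows tested these shares were 8.2% and 7.24%, or 15.4% in either direction. Both counts of 9 higher genes include WIF1, which was above background on no control array and entered the test only through its IsO arrays. Its place in them is therefore no support for a difference. The median difference over the 28 genes was 0.030, near the median of -0.012 over all rows tested, and differences ran from -3.99 to 3.93.

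**Figure D1:**
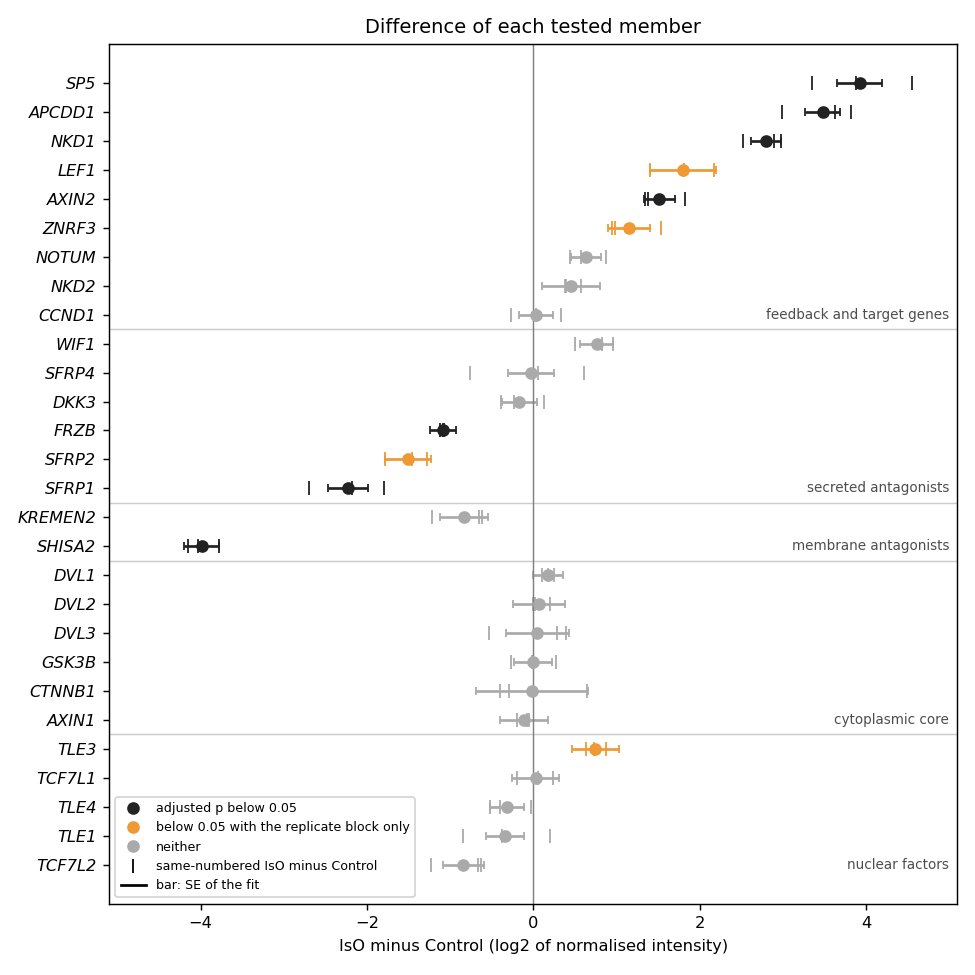
Difference of each of the 28 tested genes (IsO minus control, log2 of normalised intensity, horizontal axis), by role. Points are the fitted differences with their standard errors, and ticks the differences between same-numbered arrays; black marks an adjusted p below 0.05, orange one below it with the replicate block alone, and grey neither. SP5 at 3.93 and SHISA2 at -3.99 lie at the ends, and the cytoplasmic core genes lie between -0.11 and 0.18.

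Feedback and target genes held all 4 of the rises, in SP5, APCDD1, NKD1 and AXIN2. The roles were set with earlier results of these data known, and some genes fit several of them. APCDD1 also inhibits the pathway at the membrane, and DKK1, a Wnt target, was sorted with the antagonists. The split of rises and falls by role can reflect this sorting and is only descriptive. Of the 12 feedback and target genes, 9 were tested, none fell and 5 did not pass, with a median difference of 1.52. Over all 12, with no filter on dim rows, the median was 1.19. Over all rows tested, 0.818% were called higher. With the replicate block 6 rose, beside 3.28% of all rows tested. The groups did not overlap for 7 of the 9, all higher in IsO-like cells, beside 8.2% of all rows tested.

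SP5, a zinc-finger transcription factor and direct target of beta-catenin, read 8.82, 8.77 and 8.09 on Control 1 to 3, against 12.16, 12.65 and 12.64 on IsO 1 to 3. The lowest IsO array was thus well above the highest control array. SP5 rose by 3.93 ± 0.27 (adjusted p = 0.00205), or 15.2-fold, and by 3.29 with the background inferred from all rows (adjusted p = 0.0128). The 250 bases before its RefSeq start (GRCh38.p14) were searched for CTTTGA and CTTTGT on both strands, the letters at the core of the sites that TCF/LEF factors bind. The motifs are printed in capitals, read 5′ to 3′ on the strand of each gene. Of the 29 genes with a window, SP5 and DKK1 alone had 3 or more matches. APCDD1 and SHISA2, also printed, had none. The 11 genes without a window were not searched: AXIN2, NKD1, ZNRF3, NOTUM, DKK2, DKK3, DKK4, SFRP1, KREMEN1, KREMEN2 and CCND1. The SP5 window is chr2:170715087-170715336 (plus strand), that of DKK1 chr10:52314031-52314280 (plus strand), that of APCDD1 chr18:10454385-10454634 (plus strand) and that of SHISA2 chr13:26052017-26052266 (minus strand).
SP5: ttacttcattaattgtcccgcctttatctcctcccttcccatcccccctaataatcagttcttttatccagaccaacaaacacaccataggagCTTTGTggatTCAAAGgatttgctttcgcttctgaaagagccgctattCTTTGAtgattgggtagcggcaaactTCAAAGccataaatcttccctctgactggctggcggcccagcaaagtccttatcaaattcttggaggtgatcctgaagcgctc
DKK1: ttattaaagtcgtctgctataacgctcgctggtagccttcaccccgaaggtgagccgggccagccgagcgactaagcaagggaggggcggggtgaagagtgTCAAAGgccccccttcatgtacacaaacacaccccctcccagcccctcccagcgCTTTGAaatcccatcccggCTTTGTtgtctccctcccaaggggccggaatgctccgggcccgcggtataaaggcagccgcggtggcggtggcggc
APCDD1: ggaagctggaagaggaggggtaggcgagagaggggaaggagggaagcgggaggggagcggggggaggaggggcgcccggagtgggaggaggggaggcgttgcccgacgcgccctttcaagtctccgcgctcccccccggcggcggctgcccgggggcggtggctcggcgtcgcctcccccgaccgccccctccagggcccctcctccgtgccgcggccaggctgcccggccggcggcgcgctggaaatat
SHISA2: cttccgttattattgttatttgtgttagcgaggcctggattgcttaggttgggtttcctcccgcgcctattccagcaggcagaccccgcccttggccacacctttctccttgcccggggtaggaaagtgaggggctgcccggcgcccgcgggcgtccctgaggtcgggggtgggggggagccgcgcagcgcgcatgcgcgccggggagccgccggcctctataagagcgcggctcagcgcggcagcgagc
SP5 had 4 matches, at positions -157, -147, -109 and -83 relative to the start, none overlapping another. DKK1 had 3. Of all 35116 RefSeq windows of this length, 22.8% held either motif, 0.584% held 3 or more matches and 0.057% held 4 or more. Of the 40 genes, 29 had a window, some of them several. Of their 39 windows, 9 (23.1%) held either motif. By gene, 7 of the 29 (24.1%) held either motif in any window, a share per gene unlike the 22.8% per window. A match is a string of letters and not a measured binding site.

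APCDD1, a membrane glycoprotein that binds WNT and LRP proteins and inhibits the pathway, read 10.36, 9.99 and 10.06 on Control 1 to 3, against 13.35, 13.61 and 13.88 on IsO 1 to 3. The same-numbered arrays differed by 2.99, 3.63 and 3.82, all in the same direction. It rose by 3.48 ± 0.22 (adjusted p = 0.00124), or 11.1-fold, and its window above holds neither motif. NKD1, an inhibitor that binds Dishevelled, read 8.41, 8.57 and 8.48 on Control 1 to 3, against 11.38, 11.09 and 11.38 on IsO 1 to 3. The groups lay far apart, with a spread of 0.078 (SD) among control arrays and 0.17 among IsO arrays. NKD1 rose by 2.80 ± 0.18 (adjusted p = 0.00131), and by 1.72 with the background inferred from all rows (adjusted p = 0.0171). The paralogue NKD2 had control levels of 9.68, 10.60 and 10.62 and IsO levels of 10.25, 10.99 and 11.02. Both arrays numbered 1 were the low ones, and the groups overlapped. NKD2 differed by 0.45 ± 0.35 (adjusted p = 0.855, 95% interval -0.39 to 1.29).

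AXIN2, the inducible scaffold of the destruction complex, read 12.62, 12.52 and 12.25 on Control 1 to 3, against 14.01, 13.86 and 14.07 on IsO 1 to 3. The groups did not overlap. AXIN2 rose by 1.52 ± 0.19 (adjusted p = 0.0192), or 2.86-fold. This call was lost without Control 2, Control 3, IsO 2 or IsO 3, where the highest adjusted p was 0.124 and the difference lay between 1.41 and 1.57. ZNRF3, a ubiquitin ligase that removes Frizzled receptors from the cell surface, had control levels of 9.81, 10.13 and 10.05 and IsO levels of 10.79, 11.08 and 11.59. All IsO arrays were above all control arrays. Its difference was 1.16 ± 0.25 (adjusted p = 0.117), and the block brought it to a call (0.0290). Its relative RNF43 had no array above background, with detection p-values of 0.109 to 0.987, and was not tested.

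LEF1, a TCF-family factor and itself a Wnt target, read 9.70, 9.27 and 8.45 on Control 1 to 3, against 11.51, 10.68 and 10.63 on IsO 1 to 3. The array numbered 1 was the highest in both groups. The LEF1 difference was 1.80 ± 0.40 (adjusted p = 0.118), called once replicate numbers were blocked (0.0143). The summed normalised intensity of neural crest markers also peaked on IsO 1. It was 544 to 1974 on control arrays, 9324 on IsO 1 and 1955 to 2141 on the other IsO arrays. SOX10 was the brightest of them on IsO 1, at a log2 level of 12.69. TWIST1 did not peak there, with 8.45, 8.33 and 8.78 on IsO 1 to 3. It was the 1 marker of 4 tested that limma called higher (adjusted p = 0.0448). Of the 6 markers, 3 were above background on all control arrays, 5 on all IsO arrays and none below background on every array. Their part in the LEF1 value was not tested. TNFRSF19, a TNF-receptor family member reported as a Wnt target, had IsO levels of 8.88, 7.42 and 7.13 beside control levels of 7.25, 6.46 and 6.06. It followed the same order, with the array numbered 1 highest in both groups, and the groups overlapped. Its row combined several probes and had a detection p-value below 0.05 on IsO 1 alone, so it was not tested. In the setting that also tests such rows it differed by 1.22 ± 0.53 (adjusted p = 0.527).

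NOTUM, an enzyme that strips the lipid from Wnt proteins, was dim and read 5.56, 5.56 and 5.79 on Control 1 to 3, against 6.13, 6.43 and 6.23 on IsO 1 to 3. The groups did not overlap. NOTUM differed by 0.63 ± 0.18 (adjusted p = 0.247). CCND1, the G1 cyclin often listed as a Wnt target, read 13.63, 13.88 and 13.74 on Control 1 to 3, against 13.65, 13.61 and 14.08 on IsO 1 to 3. The ranges overlapped, and the difference was 0.031 ± 0.20 (adjusted p = 0.994, 95% interval -0.46 to 0.52). TCF7, another TCF-family factor that is a Wnt target, was not above background on any array.

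**Figure D2:**
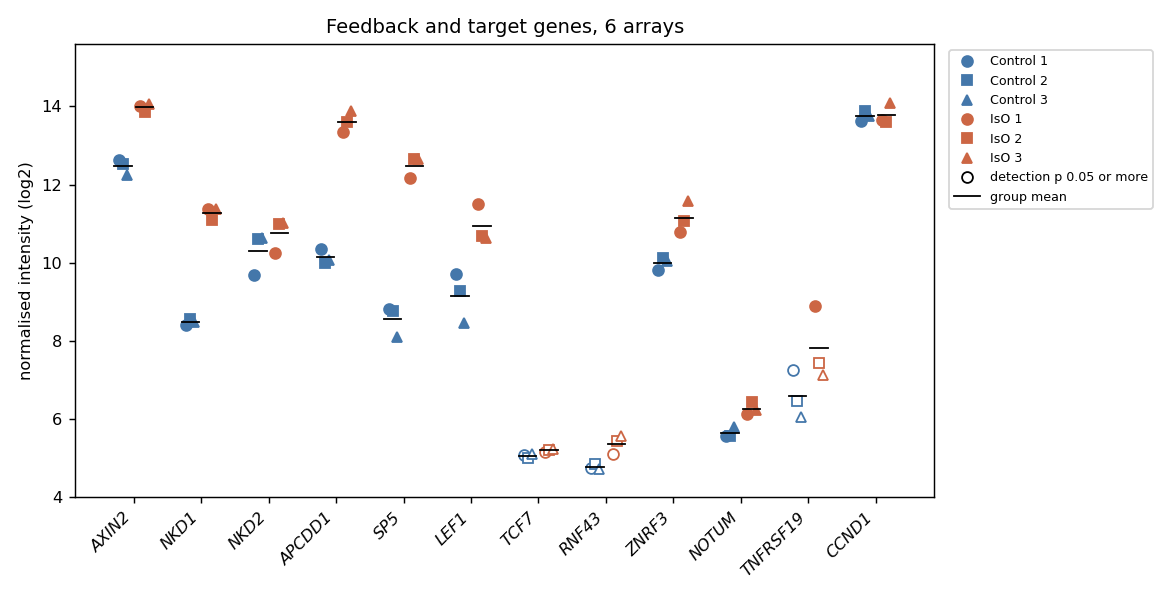
Normalised log2 intensity (vertical axis) of the 12 feedback and target genes on each of the 6 arrays, with group means as bars and open symbols where the detection p-value was 0.05 or more. SP5, APCDD1, NKD1 and AXIN2 show IsO arrays clear of control arrays, and CCND1 shows both groups between 13.61 and 14.08.

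Among the secreted antagonists, SFRP1 and FRZB were lower in IsO-like cells. Of 10 genes 6 were tested, 2 fell, none rose and 4 did not pass, with a median difference of -0.63. Over all 10 with no filter the median was -0.12. Over all rows tested, 0.488% were called lower. With the replicate block 3 of the antagonists fell, beside 2.5% of all rows tested. Without both arrays numbered 1, 3 also fell, beside 1.13%.

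SFRP1, which binds Wnt proteins through a Frizzled-like domain, read 14.51, 15.02 and 14.65 on Control 1 to 3, against 12.33, 12.33 and 12.86 on IsO 1 to 3. All IsO arrays were far below all control arrays. SFRP1 fell by 2.22 ± 0.24 (adjusted p = 0.0124), or 4.67-fold. The call was lost without Control 2, Control 3 or IsO 2, with a highest adjusted p of 0.0960 and a difference of -2.40 to -2.08 over all arrays left out in turn. SFRP2, of the same family, had control levels of 14.36, 14.60 and 14.77 and IsO levels of 12.58, 13.14 and 13.49. The groups did not overlap, and both arrays numbered 1 were the lowest of their group. Its difference of -1.51 ± 0.28 missed the threshold (adjusted p = 0.0685) and passed it in the blocked fit (0.0138). FRZB, also named SFRP3, read 13.26, 13.18 and 13.23 on Control 1 to 3, against 12.15, 12.11 and 12.15 on IsO 1 to 3. Its spread within groups was 0.044 and 0.023 (SD), the narrowest IsO spread of the 40 genes. FRZB fell by 1.09 ± 0.16 (adjusted p = 0.0334), or 2.13-fold, but the call was lost when any 1 array was left out (adjusted p = 0.0601 to 0.208) while the difference stayed between -1.11 and -1.07.

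WIF1, a secreted protein that binds Wnts directly, had a difference of the opposite sign. It read 5.32, 5.40 and 5.40 on Control 1 to 3, none above background, against 5.82, 6.22 and 6.36 on IsO 1 to 3, all above it. With the lowest detected signal in place of the control values, its fold was at least 1.25, a bound that fell to 1.10 when no background was corrected and lower still when all rows gave the background, and it did not pass (adjusted p = 0.203). It entered the test only through its IsO arrays. DKK3, a Dickkopf relative that differs from the others in its targets, had control levels of 10.22, 10.67 and 10.77 and IsO levels of 10.34, 10.28 and 10.53. The groups overlapped, and the difference was -0.17 ± 0.21 (adjusted p = 0.937). SFRP4 had control levels of 5.88, 5.59 and 5.34 and IsO levels of 5.13, 5.65 and 5.95, on both sides of the background in each group. It differed by -0.031 ± 0.27 (adjusted p = 0.995), and its sign turned without Control 1 or IsO 1.

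DKK1, which blocks the LRP5/6 co-receptors and is a Wnt target with 3 of the motifs in its window, had deposited intensities of 443, 607 and 267 on control arrays and 338, 409 and 299 on IsO arrays. The groups overlapped. Its row combined several probes with detection p-values of 0.194 to 0.491, so it was not tested, and in the setting that tests such rows it differed by -0.47 ± 0.45 (adjusted p = 0.903). DKK2, DKK4 and SFRP5 were not above background on any array.

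Of the membrane antagonists, SHISA2 fell and was the lowest difference of the 40 genes. Shisa proteins, as described in Xenopus, hold Frizzled and FGF receptors back in the endoplasmic reticulum. SHISA2 read 12.97, 13.23 and 13.24 on Control 1 to 3, against 8.94, 9.45 and 9.09 on IsO 1 to 3. The same-numbered arrays differed by -4.03, -3.78 and -4.15. SHISA2 fell by 3.99 ± 0.21 (adjusted p = 0.000685), or 15.9-fold, and was called whichever array was left out. KREMEN2, a receptor for DKK proteins, had control levels of 6.90, 7.54 and 7.64 and IsO levels of 6.25, 6.92 and 6.42. The ranges met only where IsO 2 passed Control 1. KREMEN2 differed by -0.83 ± 0.29 (adjusted p = 0.363). KREMEN1 and SHISA3 were not above background on any array.

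**Figure D3:**
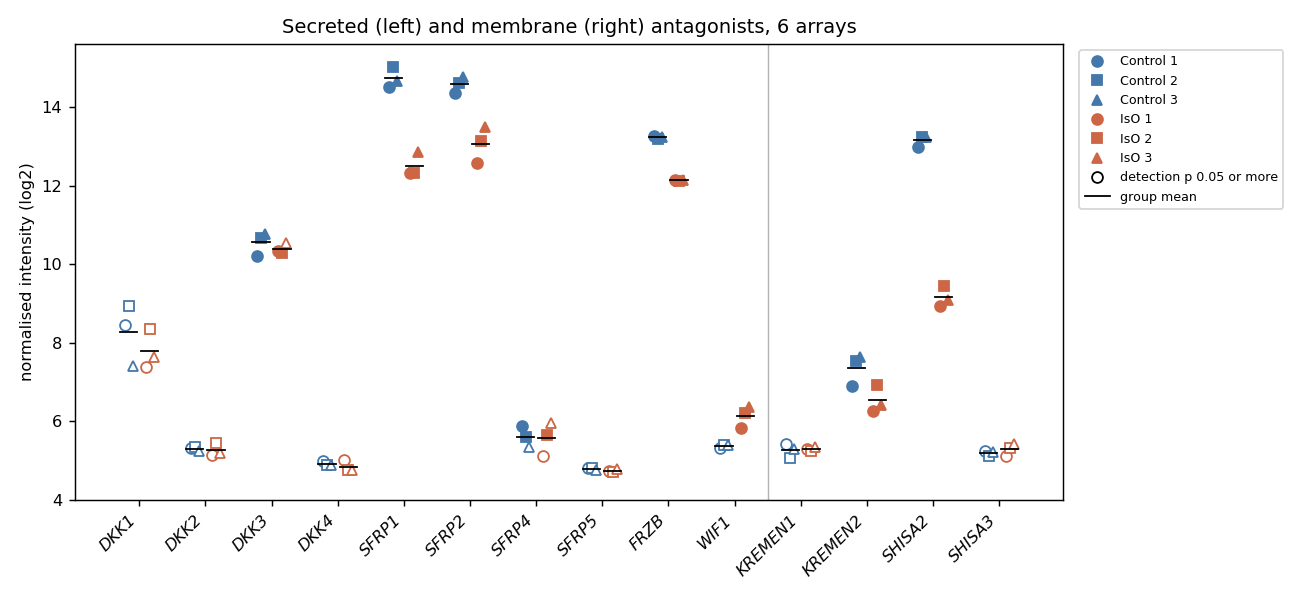
Normalised log2 intensity (vertical axis) of the 10 secreted and 4 membrane antagonists on each of the 6 arrays, with group means as bars and open symbols where the detection p-value was 0.05 or more. SFRP1, SFRP2, FRZB and SHISA2 lie lower on IsO arrays, and WIF1 is detected on IsO arrays alone.

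No cytoplasmic core component was called. Of 8 genes 6 were tested, with limma differences of -0.11 to 0.18 and a median of 0.023; none had an unadjusted p below 0.05, and none was called with the replicate block. For none of the 6 did the groups stay apart, as they did for 15.4% of all rows tested. CTNNB1, which encodes beta-catenin, had control levels of 8.17, 7.43 and 6.73 and IsO levels of 8.82, 7.14 and 6.34. The array numbered 1 was highest and that numbered 3 lowest in both groups. CTNNB1 differed by -0.011 ± 0.67 (adjusted p = 0.999), with a 95% interval of -1.63 to 1.60 that leaves wide room for a difference in either direction, and its sign turned under several settings.

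GSK3B, 1 of the kinase genes whose product CHIR99021 inhibits, had control levels of 9.93, 10.35 and 10.21 and IsO levels of 9.91, 10.09 and 10.48. It differed by -0.0030 ± 0.23 (adjusted p = 0.999, 95% interval -0.55 to 0.54). AXIN1, the constitutive scaffold and paralogue of AXIN2, had control levels of 9.78, 10.32 and 10.43 and IsO levels of 9.58, 10.27 and 10.35. AXIN1 thus lay in the same range in both groups, with a difference of -0.11 ± 0.29 (adjusted p = 0.982, 95% interval -0.81 to 0.59), beside the rise of AXIN2. The Dishevelled genes, whose products relay the signal from Frizzled to the destruction complex, differed by 0.18 ± 0.18 (DVL1), 0.071 ± 0.31 (DVL2) and 0.049 ± 0.38 (DVL3), with adjusted p of 0.914 to 0.995. Detection of DVL1 was limited to 1 control array and 2 IsO arrays. The array numbered 1 was the lowest of both groups for 5 of the 6 core genes and the highest of both for CTNNB1. Over all rows tested, 45.2% had the array numbered 1 lowest in both groups and 25% had it highest. APC and GSK3A were not above background on any array.

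Among the nuclear factors, none of 5 tested genes was called. At an unadjusted p below 0.05, 1 was higher and 1 lower, beside 777 and 664 of all 14548 rows tested. TLE3 was called with the replicate block. TLE3, a Groucho-type corepressor, had control levels of 7.51, 8.18 and 8.31 and IsO levels of 8.38, 8.91 and 8.95. All IsO arrays were above all control arrays. It differed by 0.75 ± 0.29 (adjusted p = 0.442, or 0.0395 in the blocked fit). TCF7L2, a TCF factor that can activate or repress, had control levels of 8.33, 9.02 and 8.81 and IsO levels of 7.69, 7.80 and 8.15. The groups did not overlap, and the difference was -0.84 ± 0.25 (adjusted p = 0.262, or 0.0586 in the blocked fit). TCF7L1, known mainly as a repressor, had overlapping levels of 8.59 to 9.37 on control arrays and 8.82 to 9.43 on IsO arrays, with a difference of 0.029 ± 0.29 (adjusted p = 0.995, 95% interval -0.65 to 0.71). The corepressors TLE1 and TLE4 differed by -0.34 ± 0.23 (adjusted p = 0.802) and -0.32 ± 0.20 (adjusted p = 0.774), with no overlap between groups for TLE4. TLE2 was above background on IsO 2 alone and was not tested. Across the TCF/LEF family, LEF1 had the largest difference of the 3 tested, and no test compared its difference with those of TCF7L1 and TCF7L2.

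**Figure D4:**
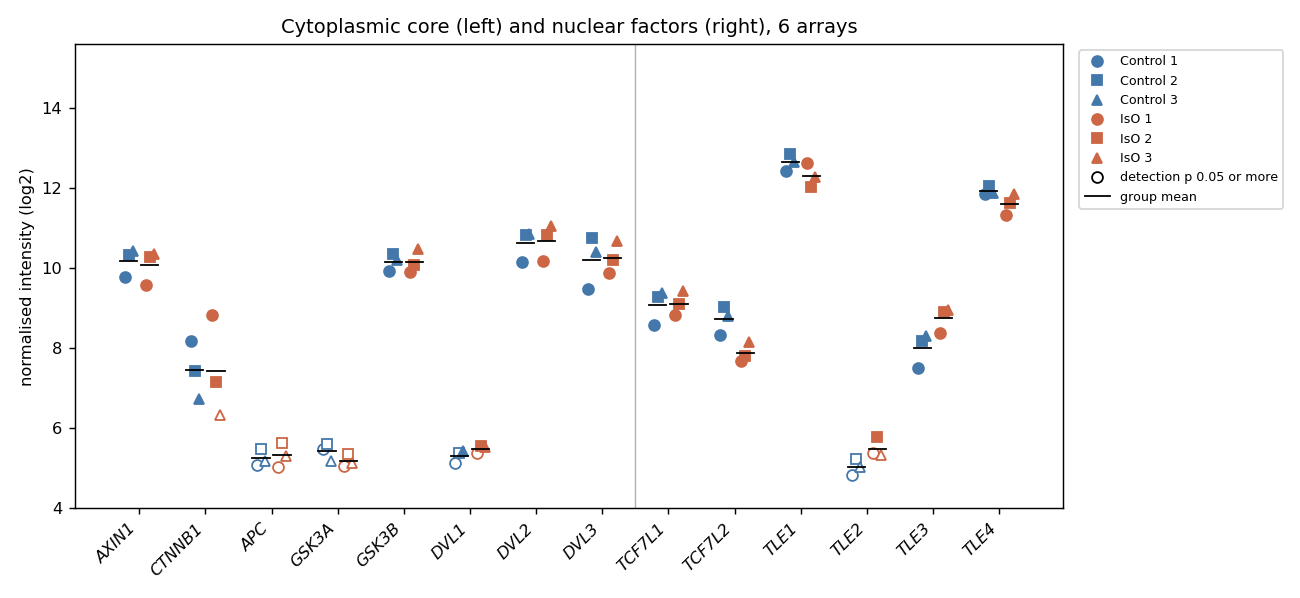
Normalised log2 intensity (vertical axis) of the 8 cytoplasmic core and 6 nuclear genes on each of the 6 arrays, with group means as bars and open symbols where the detection p-value was 0.05 or more. Control and IsO levels of the tested core genes overlap, and CTNNB1 spreads from 6.34 to 8.82 with the arrays numbered 1 highest.

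The other genes of the pathway give the surroundings of these values. Of 19 Wnt ligand genes 9 were tested, and WNT1, WNT3A and WNT10B rose, by 3.65 ± 0.30 (adjusted p = 0.00374), 3.24 ± 0.44 (adjusted p = 0.0271) and 2.25 ± 0.22 (adjusted p = 0.00918). Of 22 receptors and receptor modulators 18 were tested. FZD10 rose by 3.02 ± 0.28 (adjusted p = 0.00672), and FZD5 and FZD8 fell by 4.61 ± 0.28 (adjusted p = 0.00122) and 2.08 ± 0.28 (adjusted p = 0.0254). Of 29 further components 23 were tested and limma called none. With the block 2 were called higher, beside 3.28% of all rows tested. At an unadjusted p below 0.05, 2 were higher and 2 lower, beside 777 and 664 of all 14548 rows tested. Neither of the 2 secretion genes was called, and neither had an unadjusted p below 0.05. Of 16 other genes listed as Wnt targets in various tissues, 11 were tested. MSX2 and MSX1, homeobox genes that BMP signalling also induces, rose by 3.54 ± 0.36 (adjusted p = 0.00984) and 3.00 ± 0.47 (adjusted p = 0.0429). MSX2 was detected on just 2 of the control arrays. The caudal-type homeobox gene CDX2 was above background on no control array and entered the test only through its IsO arrays, so its adjusted p of 0.0421 is no support for a difference. Its lowest fold by the detection limit was 1.91 as processed here, 1.34 when no background was corrected and 1.03 when all rows gave the background. MYC, a growth regulator, fell by 1.90 ± 0.31 (adjusted p = 0.0493). Leaving out single arrays cost every one of these 10 calls but WNT1 and FZD5 at least once, and CDX2 was also lost without both arrays numbered 1 (adjusted p = 0.0606). With the background inferred from all rows, WNT1, WNT3A and FZD10 were the calls left of the 10. In that setting the differences were -1.35 for FZD5 (adjusted p = 0.107), -0.47 for FZD8, 0.56 for FZD10, 0.50 for WNT10B, 0.66 for MSX2, 0.064 for CDX2 and -1.14 for MYC. The replicate block left the 10 calls in place and added others. Among ligands it added WNT3 and WNT4 as higher and WNT7B and WNT8B as lower, and among receptors and modulators RSPO3 as higher and FZD2 as lower. Among further components it added CXXC5 and DACT1 as higher, and among other targets ID2, SNAI2 and GBX2 as higher and JUN as lower. GBX2, like CDX2, was above background on no control array and entered the test only through its IsO arrays. Its blocked call is therefore no support for a difference. The lowest fold of GBX2 by the detection limit was 1.95 as processed here, 1.36 when no background was corrected and 1.03 when all rows gave the background.

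**Figure D5:**
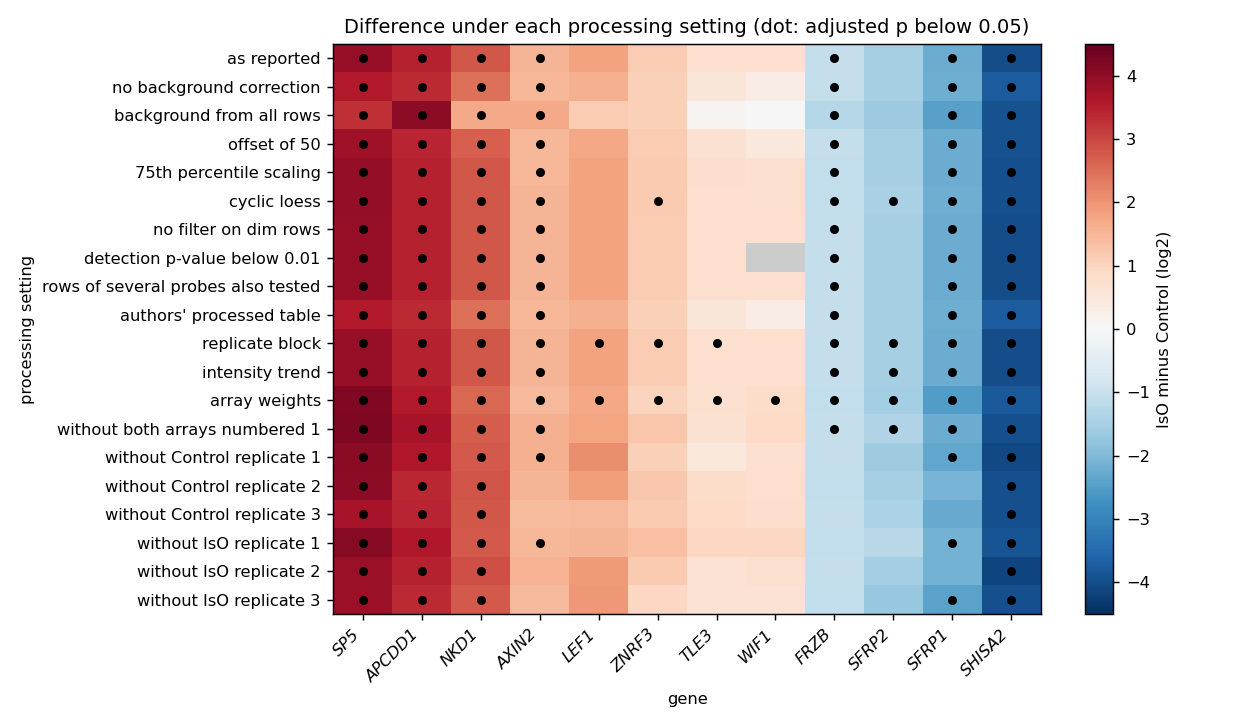
Difference (colour, IsO minus control, log2) of 12 of the genes, picked with their values known, under the reported processing and each alternative (rows), with a dot where the adjusted p was below 0.05 and grey where a gene was not tested. SP5, APCDD1, NKD1 and SHISA2 carry a dot in every row, and FRZB carries none in the rows that leave out 1 array.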

How the data were processed

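The deposited table gave, per the file headers, a linear intensity and a detection p-value for each of 34692 rows on 6 arrays, made with GenomeStudio 2011.1 per the submitters' processing notes. The authors combined the probes of a gene into 1 row, and 27312 rows held a single probe by the spacing of their detection p-values. The deposited processed table held log2 intensities equal, within 5.0e-07, to quantile-normalised log2 intensities without background correction, and served as an alternative. No build is given in the sources used here.

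Intensities were corrected by normexp (limma 3.58.1, R 4.3.3) with the background inferred from single-probe rows (means of 122 to 132, SDs of 22.0 to 25.3), offset 16, quantile-normalised and log2-transformed. Quantile normalisation would hide a shift common to most genes, and the offset compresses dim genes. The test covered the 14548 rows detected (p-value under 0.05) on 3 or more arrays and used lmFit and eBayes, without covariates, after a test on simulated data. A row of several probes also counted as above background where it reached the lowest signal of a detected single-probe row.

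The labels give both groups the replicate numbers 1 to 3. Deviations from the group means of same-numbered arrays correlated at 0.87, 0.40 and 0.66 over tested rows. Those of Control 2 with IsO 3 (0.70) and of Control 3 with IsO 2 (0.49) also correlated. The data thus set apart the arrays numbered 1 and do not show a pairing of numbers 2 and 3. The labels state no pairing, so the reported fit had no block and the replicate block served as an alternative. The genes, their roles and the lists were chosen with earlier results of these data known. All 40 genes are named; of other lists, called genes with the 3 highest and 3 lowest differences. Promoter windows came from RefSeq (GRCh38.p14), and 29 of 40 genes matched by symbol. Alternatives changed the background correction, offset, normalisation, filter, source table, block, variance trend, array weights and samples.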

Additional observations from a re-analysis of the deposited data

Results flagged for a closer look

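TLE2, a Groucho-type corepressor gene that was not tested, was above background on IsO 2 and on no control array. Its deposited intensity there was 159.34, with a detection p-value of 0.0455, and the other IsO arrays had detection p-values of 0.154 and 0.225. With no filter on dim rows it differed by 0.46 ± 0.17 on the log2 scale (limma, 3 arrays per group, adjusted p = 0.572).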

How the results depend on the processing

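SP5, APCDD1, NKD1 and SHISA2 kept their direction and their call under all 19 alternatives, though NKD1 and SP5 were smaller with the background from all rows (1.72 and 3.29). AXIN2 was called under 15, SFRP1 under 16 and FRZB under 13, and each kept its direction under all 19. Over all rows, 119 were called higher and 71 lower; with the background from all rows these counts were 62 and 39, with cyclic loess 179 and 132, with the replicate block 477 and 364, and without both arrays numbered 1 194 and 164. With array weights they were 2327 and 2279, but IsO 2 then had a weight of 71.0 against 0.14 to 1.46 for the other arrays. Leaving out 1 array at a time gave 20 to 105 and 20 to 63. Members called higher and lower numbered 4 and 3, with 7 higher under the replicate block and 10 and 9 with array weights. With 1 array left out they numbered 3 to 4 and 1 to 2. The 10 with array weights include WIF1, which entered the test only through its IsO arrays. Array weights gave 8 feedback and target genes higher and 4 secreted antagonists lower; with 1 array left out these were 3 to 4 and 0 to 1. The 0 arose with limma without Control 2, Control 3 or IsO 2, each with 3 secreted antagonists lower at an unadjusted p below 0.05. The replicate block added LEF1, ZNRF3, TLE3 and SFRP2 to the calls and removed none.

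Signs turned only for 8 genes that were not called. CTNNB1 differed by 0.048 without background correction, 0.025 with the background from all rows, 0.023 with an offset of 50, 0.049 with scaling to the 75th percentile, 0.010 with cyclic loess and 0.048 in the authors' processed table. GSK3B differed by 0.0056 with the background from all rows, 0.0092 with 75th percentile scaling, 0.013 with cyclic loess and 0.0045 without both arrays numbered 1, and DVL3 by -0.0090 with the background from all rows. Array weights gave -0.20 for CCND1, 0.14 for SFRP4, -0.31 for DVL3 and -0.19 for TCF7L1. Without both arrays numbered 1, SFRP4 differed by 0.33, DVL3 by -0.13 and TCF7L1 by -0.073. With 1 array left out, the ranges were -0.12 to 0.12 for CCND1, -0.22 to 0.19 for SFRP4, -0.31 to 0.13 for AXIN1, -0.70 to 0.54 for CTNNB1, -0.16 to 0.12 for GSK3B, -0.16 to 0.32 for DVL2, -0.31 to 0.32 for DVL3 and -0.22 to 0.18 for TCF7L1. The cause of these changes was not tested. No scaling moved the median of all rows by over 0.1, and signal over background limits the dim rows, with 9 of the 40 genes above background on no array.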
